A study of Homo sapiens with 6 samples.

Results

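Messenger RNA was measured by RNA sequencing for 9 genes of NADPH supply and the pentose phosphate pathway in T84 cells, a human line established from a colorectal cancer. The genes were taken by symbol from a table of 58735 genes: PGLS, PGD, RPIA, RPE, TKT, TALDO1, ME1, ME2 and IDH1. All 9 were found once, and all 9 were among the 15694 genes with enough reads to be tested. The set is wider than NADPH production itself. PGD, ME1 and IDH1 encode enzymes that make NADPH, ME2 encodes a mitochondrial enzyme that works mainly with NAD, and PGLS, RPIA, RPE, TKT and TALDO1 encode steps of the pentose pathway that make no NADPH.

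The study compared 3 libraries from wild-type T84 cells carrying a control hairpin (shControl) with 3 from T84 cells with ACSL4 knocked down by a hairpin (shACSL4). ACSL4 encodes a ligase that joins fatty acids such as arachidonic acid to coenzyme A, and the series title places the work in immunosuppression in colorectal cancer. The sample labels speak of a knockdown and the series text of a knockout, and no clone, hairpin sequence, number of hairpins, culture time or batch is given in the sources used here. Whether replicates were grown apart is not stated, so p-values measure the spread between these 6 libraries, which may be technical. Values of single libraries below follow the order of replicates 1, 2 and 3.

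Libraries held 14740383 to 17620630 counts. ACSL4 checked the labels: it was at 75.5, 72.2 and 72.0 CPM (counts scaled to a common library size) in the shControl libraries and at 10.3, 9.12 and 11.1 CPM in the shACSL4 libraries, a log2 fold change of -2.85 (SE 0.10). All 9 colonic epithelial markers examined were read, with a summed level of 6049 to 7132 CPM in shControl and 7249 to 8531 CPM in shACSL4. These markers moved in both directions: KRT20 (log2 fold change 0.88), KRT8 (0.51), VIL1 (0.47), KRT18 (0.44) and GUCY2C (0.32) were called higher, EPCAM (-0.42) was called lower, and CDH1, CDX2 and CFTR were not called. Their part in the results below was not tested. The 10 markers of blood, vessel and connective tissue cells summed to 7.68 to 9.62 CPM in shControl and 4.85 to 6.33 CPM in shACSL4, with CD3E at 0 counts in all 6 libraries. Of all genes tested, 47.2% were called in either direction, 23.1% lower and 24% higher in shACSL4, at an adjusted p under 0.05 in edgeR's quasi-likelihood test, and the median log2 fold change was 0.01. In bulk RNA, fewer cells of a kind and less RNA per cell cannot be told apart.

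NADPH is the cell's main carrier of reducing power for building fatty acids and sterols and for keeping glutathione and thioredoxin reduced. The pentose phosphate pathway has an oxidative arm, which turns a hexose phosphate into ribulose 5-phosphate and reduces NADP on the way, and a non-oxidative arm, whose reversible reactions join pentose phosphates to glycolysis. Malic enzymes and isocitrate dehydrogenases make NADPH or NADH from malate and isocitrate, intermediates shared with the citric acid cycle. Several of these genes, among them PGD, TKT, TALDO1, ME1 and IDH1, are known targets of the stress-responsive transcription factor NRF2, which binds antioxidant response elements.

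In shACSL4 cells 7 of the 9 mRNAs fell, 1 rose and 1 did not pass the test, where 47.2% of all genes tested were called, 23.1% lower and 24% higher. The falls were ME1 to 48.5% of its shControl level, TALDO1 to 51.1%, PGD to 55.1%, RPIA to 59.3%, TKT to 65.7%, ME2 to 71.6% and IDH1 to 82.7%. RPE rose to 120% and PGLS, at 107.5%, did not pass the test. The median log2 fold change of the 9 genes was -0.61, against 0.01 over all genes tested. Each of the 9 had a mean of at least 500 counts, and of the 6568 genes tested at that depth 32% were called lower and 22.6% higher, with a median of -0.06. Beyond a log2 fold change of -0.5 lay 5 of the 9 as called falls, against 13.4% of all genes tested. For 7 genes every shACSL4 library lay below every shControl library (26.8% of all genes tested), for RPE every shACSL4 library lay above (28.3%), and for PGLS the groups overlapped.

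**Figure D1:**
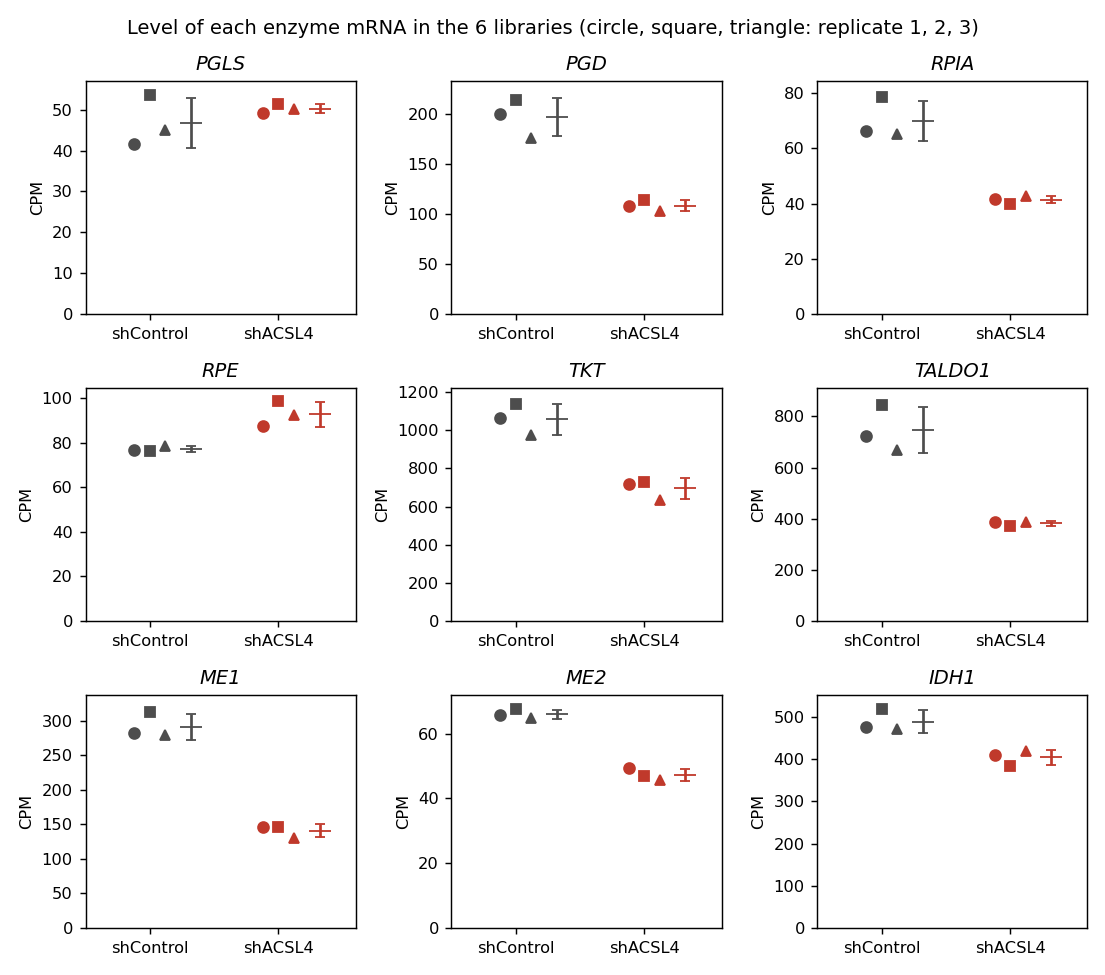
Level of each of the 9 mRNAs in CPM (vertical axis, from 0) in the 3 shControl (grey) and 3 shACSL4 (red) libraries, with circle, square and triangle for replicates 1, 2 and 3 and a bar for the mean ± SD. The groups are apart for 7 genes that fell and for RPE, which rose, and they overlap for PGLS.

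Promoter sequences are shown for the genes whose window holds the antioxidant response element core, since NRF2 is the factor best known for several of them. Windows run from 250 bases before to 50 after the RefSeq transcription start (GRCh38.p14), and all 9 genes matched, IDH1 with a pair of starts. The core was searched on both strands as TGACNNNGC and as TGAGNNNGC, and capitals mark every match to either spelling. The windows of PGD (chr1:10398814-10399113, plus strand), ME1 (chr6:83431002-83431301, minus strand), IDH1 (chr2:208255022-208255321, minus strand, the upstream start) and RPE (chr2:210002388-210002687, plus strand) read, in the direction of the gene:
PGD: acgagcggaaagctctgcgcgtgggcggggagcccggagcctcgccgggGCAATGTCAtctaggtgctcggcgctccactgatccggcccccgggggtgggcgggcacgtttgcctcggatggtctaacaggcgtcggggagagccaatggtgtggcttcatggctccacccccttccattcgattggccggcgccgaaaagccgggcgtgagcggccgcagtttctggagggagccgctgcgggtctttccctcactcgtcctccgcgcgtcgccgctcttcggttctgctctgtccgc
ME1: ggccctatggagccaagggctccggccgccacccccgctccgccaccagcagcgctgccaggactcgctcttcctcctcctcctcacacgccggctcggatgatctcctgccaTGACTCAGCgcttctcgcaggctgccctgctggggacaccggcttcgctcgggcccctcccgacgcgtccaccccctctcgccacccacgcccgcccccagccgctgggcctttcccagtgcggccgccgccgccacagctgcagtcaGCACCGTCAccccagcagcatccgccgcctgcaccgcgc
IDH1: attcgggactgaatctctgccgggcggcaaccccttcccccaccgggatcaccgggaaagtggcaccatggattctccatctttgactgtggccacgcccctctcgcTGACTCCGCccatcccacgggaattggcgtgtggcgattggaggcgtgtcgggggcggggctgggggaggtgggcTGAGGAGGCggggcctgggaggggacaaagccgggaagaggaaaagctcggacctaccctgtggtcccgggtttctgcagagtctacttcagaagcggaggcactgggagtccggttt
RPE: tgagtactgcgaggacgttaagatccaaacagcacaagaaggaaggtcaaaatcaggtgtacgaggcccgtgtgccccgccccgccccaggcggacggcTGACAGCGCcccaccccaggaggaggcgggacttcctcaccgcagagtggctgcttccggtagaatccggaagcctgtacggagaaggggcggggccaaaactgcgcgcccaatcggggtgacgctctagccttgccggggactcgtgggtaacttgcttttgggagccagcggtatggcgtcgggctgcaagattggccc

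ME1 holds TGACTCAGC, which starts at position -137 from the transcription start. It also holds TGACGGTGC on the opposite strand, with its leftmost base, as printed above, at 12. IDH1 holds TGACTCCGC at -143 and TGAGGAGGC at -68, and RPE holds TGACAGCGC at -151. PGD holds TGACATTGC on the opposite strand, with its leftmost base at -201. Either spelling was thus present for 4 of 9 genes, against 29.1% of all 35116 promoter windows and 31.5% of the 15174 windows of tested genes. The background is per window, while IDH1 counts as 1 gene with a pair of windows. By spelling, TGACNNNGC was present for the same 4 genes (13.3% of all windows and 14.5% of those of tested genes). TGAGNNNGC was present for IDH1 (18.3% and 20.1%). Whether any of these counts differs from its background was not tested. Of the genes with a match, ME1, PGD and IDH1 fell and RPE rose, a rise called in 13 of 17 alternatives. TALDO1, RPIA, TKT and ME2 fell without a match in this window, and PGLS had no match and was not called. Whether a match goes with a direction was not tested. The E-box CACGTG (7.26% of windows) and the sterol element TCACNCCAC (1.13%) were in none of the 9 genes' windows. The hypoxia response core ACGTG was found for PGD and IDH1, against 21.4% of all windows. For IDH1 it lay in the window of the downstream start (chr2:208254409-208254708), which is not shown. A match describes letters and not a bound site, and an absent match concerns these windows alone.

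The oxidative arm held 1 gene that did not pass the test and 1 that fell. PGLS (ENSG00000130313, chromosome 19, 17511629 to 17521288, plus strand, GRCh38) encodes 6-phosphogluconolactonase, which opens the sugar lactone before the last dehydrogenase step. It stood at 41.6, 53.6 and 45.1 CPM with the control hairpin and at 49.2, 51.4 and 50.2 CPM with the ACSL4 hairpin. The shACSL4 values lay within the shControl range. Its log2 fold change was 0.10 (SE 0.10, edgeR adjusted p = 0.408), with an interval of -0.09 to 0.30 at 2 SE. Among 51 neighbouring genes the running median of the fold change was 0.16, and relative to it PGLS was at -0.05.

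PGD (ENSG00000142657, chromosome 1, 10398592 to 10420144, plus strand) encodes 6-phosphogluconate dehydrogenase, the step that makes NADPH and ribulose 5-phosphate. Control libraries read 199.9, 213.9 and 176 CPM, and knockdown libraries 107.8, 114.2 and 103.1 CPM. The lowest shControl library was well above the highest shACSL4 library. Means were 197 ± 19.1 CPM for shControl and 108 ± 5.56 CPM for shACSL4 (SD, n = 3), a log2 fold change of -0.86 (SE 0.09) with an edgeR adjusted p of 1.2e-06.

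The non-oxidative arm held 3 falls and 1 rise. The mRNAs of both enzymes that act on ribulose 5-phosphate changed in opposite directions. RPIA (ENSG00000153574, chromosome 2, 88691644 to 88750935, plus strand) encodes the isomerase that makes ribose 5-phosphate, the precursor of nucleotides. Its shControl libraries stood at 66.3, 78.4 and 65.0 CPM and its shACSL4 libraries at 41.8, 40.0 and 42.7 CPM. The shACSL4 libraries were close together and all lower, at 41.5 ± 1.40 against 69.9 ± 7.37 CPM (SD, n = 3). The log2 fold change was -0.75 (SE 0.09, edgeR adjusted p = 6.2e-06).

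RPE (ENSG00000197713, chromosome 2, 210002565 to 210022259, plus strand) encodes the epimerase that makes xylulose 5-phosphate from the same substrate. It was at 76.6, 76.3 and 78.7 CPM in shControl and at 87.3, 98.4 and 92.4 CPM in shACSL4. Every shACSL4 library was higher, by a small margin, with a log2 fold change of 0.26 (SE 0.08, edgeR adjusted p = 0.015). The call was lost without shControl replicate 1 (adjusted p = 0.0612), without shACSL4 replicate 2 (0.0868), against a fold of 1.2 (0.44) and relative to neighbouring genes (0.16 on the log2 scale, adjusted p = 0.126), within a range of 0.00155 to 0.44 over 17 alternatives. The last 837 bases of the RPE locus are shared with KANSL1L on the opposite strand, which had 20.2% of the reads of RPE and a log2 fold change of 0.24 (SE 0.13, edgeR adjusted p = 0.16), and the use of strand in counting is not given in the sources used here. Retrocopies took few reads: the intronless relative RPEL1 had a mean of 3.83 counts and no RPE pseudogene a mean above 1.17 counts.

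Set against each other within a library, RPIA exceeded RPE in all 3 shControl libraries, with ratios of FPKM (the authors' values scaled for depth and gene length) of 1.65, 1.96 and 1.58. In all 3 shACSL4 libraries RPIA was below RPE, with ratios of 0.913, 0.774 and 0.881. The log2 ratio changed by -1.01 where the SD between libraries was 0.15. This pair was chosen after the values were seen, and no test was made, since an exact permutation test of 3 against 3 cannot go below 0.1.

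TKT (ENSG00000163931, chromosome 3, 53224707 to 53256052, minus strand) encodes transketolase, which moves units of a pair of carbons between sugar phosphates. It took the most reads of the 9 genes, with 1064, 1135 and 974 CPM in control libraries and 721, 729.9 and 633 CPM in knockdown libraries. All shACSL4 libraries were lower. The log2 fold change was -0.61 (SE 0.10, edgeR adjusted p = 8.6e-05).

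TALDO1 (ENSG00000177156, chromosome 11, 747329 to 765024, plus strand) encodes transaldolase, which moves units of a trio of carbons and works with transketolase. Its level was 723, 844 and 670.4 CPM in the shControl libraries and 388, 371 and 386 CPM in the shACSL4 libraries. The shControl libraries spread widely (SD 89.3 CPM) and the shACSL4 libraries narrowly (SD 9.01 CPM), with no overlap. The log2 fold change was -0.97 (SE 0.10, edgeR adjusted p = 6.7e-07), in a neighbourhood whose running median was 0.11. The TKT to TALDO1 ratio of FPKM was 0.465, 0.425 and 0.459 in shControl and 0.588, 0.622 and 0.519 in shACSL4, higher in every shACSL4 library and with no test.

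ME1 and TALDO1 had the largest falls of the 9, at -1.04 (SE 0.09) and -0.97 (SE 0.10), a gap smaller than either SE, and relative to neighbouring genes their order turned (-1.06 for ME1 and -1.08 for TALDO1). ME1 (ENSG00000065833, chromosome 6, 83210389 to 83431071, minus strand) encodes the cytosolic malic enzyme, which makes pyruvate and NADPH from malate and is known as a supplier of NADPH for fatty acid synthesis. Control libraries held 281, 312 and 278 CPM, and knockdown libraries 146, 146 and 130.5 CPM. All knockdown libraries lay far below all control libraries. Means were 291 ± 18.8 CPM for shControl and 141 ± 9.03 CPM for shACSL4 (SD, n = 3), a log2 fold change of -1.04 (SE 0.09) with an edgeR adjusted p of 8.6e-08.

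ME2 (ENSG00000082212, chromosome 18, 50878734 to 50954257, plus strand) encodes the mitochondrial malic enzyme. It was at 65.8, 67.5 and 64.8 CPM in shControl and at 49.4, 46.9 and 45.7 CPM in shACSL4. The libraries of each group were close together and the groups apart, with a log2 fold change of -0.48 (SE 0.08, edgeR adjusted p = 0.000173). The ME1 to ME2 ratio of FPKM was 20.6, 22.3 and 20.7 in shControl and 14.2, 15.04 and 13.8 in shACSL4, so ME1 was lower relative to ME2 in every shACSL4 library. Their relative ME3, a mitochondrial malic enzyme that uses NADP, fell from 65.0 ± 4.24 to 31.1 ± 2.10 CPM (SD, n = 3), a log2 fold change of -1.06 (SE 0.09, edgeR adjusted p = 1.2e-07).

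IDH1 (ENSG00000138413, chromosome 2, 208236227 to 208266074, minus strand) encodes the cytosolic and peroxisomal isocitrate dehydrogenase that makes NADPH. It read 475, 519.8 and 472 CPM in control libraries and 410.4, 384 and 419 CPM in knockdown libraries. The groups did not overlap, but the difference was the smallest of the called falls, with a log2 fold change of -0.27 (SE 0.09, edgeR adjusted p = 0.0167). The call was lost with library size alone as scaling (-0.15, adjusted p = 0.135), without shACSL4 replicate 2 (0.0941) and against a fold of 1.2 (0.403), within a range of 0.00235 to 0.403 over 17 alternatives. IDH2, its mitochondrial counterpart, was at 382 ± 48.6 and 358 ± 14.1 CPM (SD, n = 3), with a log2 fold change of -0.10 (SE 0.10, edgeR adjusted p = 0.444). The IDH1 to IDH2 ratio of FPKM was 0.711 to 0.824 in shControl (SD 0.0565) and 0.656 to 0.704 in shACSL4 (SD 0.0259). The groups were only narrowly apart, and no test was made.

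**Figure D2:**
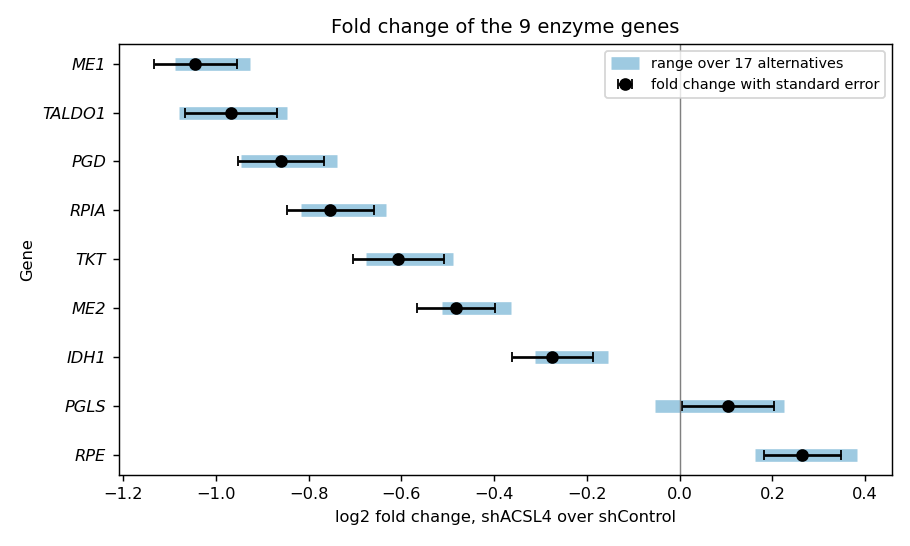
Log2 fold change of shACSL4 over shControl (horizontal axis) for the 9 genes, with points and black bars for the value and its standard error and blue bars for the range over 17 alternative settings. The range of PGLS alone includes 0, from -0.05 to 0.23, while that of ME1 runs from -1.09 to -0.93.

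The authors' deposited table gives log2 fold changes of -1.06 for ME1, -0.98 for TALDO1, -0.87 for PGD, -0.77 for RPIA, -0.62 for TKT, -0.50 for ME2, -0.29 for IDH1, 0.25 for RPE and 0.09 for PGLS, with PGLS at an adjusted p of 0.615.

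Within shControl, replicate 2 was the highest library for 8 of the 9 genes, the exception being RPE, while over all genes tested it was the highest for 38.7%. It also had the largest share of mitochondrial reads, 9.91% against 8.13% and 8.99%, and the part of either in the results was not tested. Without that library 7 of the 9 genes were still called lower and 1 higher. The same library had the highest sum over the 9 genes, at 3301 CPM, against 2993 and 2824 CPM in replicates 1 and 3. Knockdown libraries summed to 1999.97, 1982 and 1902 CPM, all below the shControl libraries. TKT and TALDO1 made up 58.2% to 60.0% of the summed CPM in shControl and 53.6% to 55.6% in shACSL4.

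Per gene length, TALDO1 had the highest level of the 9 in both groups, at 247 ± 31.0 FPKM in shControl and 125 ± 2.60 FPKM in shACSL4 (SD, n = 3). In shControl it was followed by TKT (111 ± 9.21 FPKM), IDH1 (103 ± 6.18 FPKM), ME1 (85.7 ± 6.00 FPKM), PGD (65.9 ± 6.87 FPKM), RPIA (37.6 ± 4.16 FPKM), RPE (21.8 ± 0.210 FPKM), PGLS (16.3 ± 2.21 FPKM) and ME2 (4.04 ± 0.110 FPKM). Only TKT and IDH1 overlapped among neighbours in that order. The shACSL4 order differed at 4 places: IDH1 (84.3 ± 3.66 FPKM) stood above TKT (71.9 ± 5.60 FPKM), and RPE (25.9 ± 1.64 FPKM) above RPIA (22.1 ± 0.693 FPKM), without overlap in either pair. The deposited gene lengths exceed those of the principal transcript for most of the 9, as for ME2 (16243 against 9415 bases) and TKT (9507 against 3010). Over the length of the principal transcript, TALDO1, TKT and IDH1 led in that order in both groups and ME2 was the last, while 5 genes in shControl and 7 in shACSL4 took another rank.

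**Figure D3:**
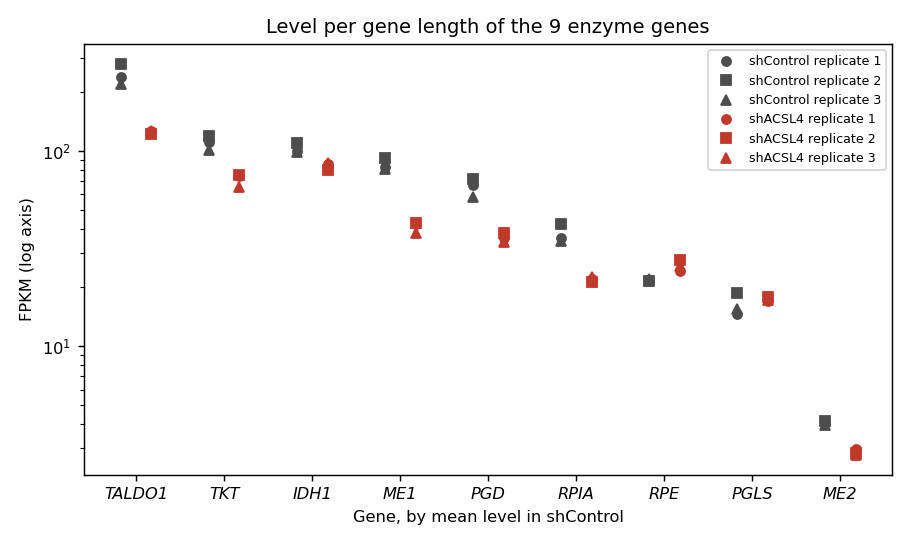
FPKM on a log axis for the 9 genes, ordered by their mean in shControl, with 3 shControl (grey) and 3 shACSL4 (red) libraries each. TALDO1 is highest and ME2 lowest in both groups, and RPE is above RPIA in shACSL4 alone.

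**Figure D4:**
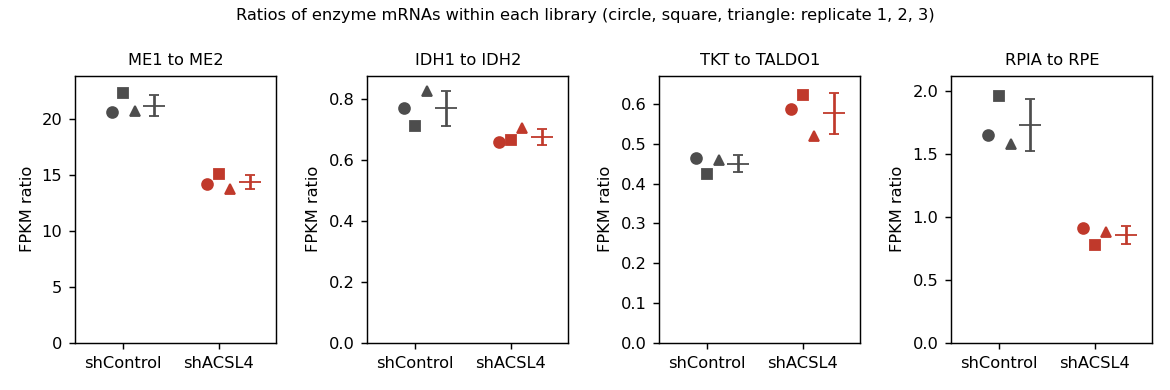
Ratio of FPKM between pairs of mRNAs in each library (vertical axes from 0), with circle, square and triangle for replicates 1, 2 and 3 and bars for mean ± SD. ME1 to ME2 went from 21.2 ± 0.946 to 14.3 ± 0.644, IDH1 to IDH2 from 0.767 ± 0.0565 to 0.674 ± 0.0259, TKT to TALDO1 from 0.45 ± 0.0218 to 0.576 ± 0.0523 and RPIA to RPE from 1.73 ± 0.203 to 0.856 ± 0.073 (SD, n = 3). The groups did not overlap, though they were only narrowly apart for IDH1 to IDH2.

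Of 12 other genes of NADPH supply, NADP synthesis or linked folate steps, 3 fell and 2 rose (23.1% and 24% of all genes tested). Their median log2 fold change was -0.04. Beside ME3, ALDH1L1, a cytosolic folate enzyme that makes NADPH, fell from 8.23 ± 0.366 to 4.11 ± 1.02 CPM (SD, n = 3). MTHFD2L, a mitochondrial folate dehydrogenase, rose from 7.59 ± 1.59 to 11.3 ± 1.38 CPM (SD, n = 3). NADK, the cytosolic kinase that makes NADP, was at -0.23 (SE 0.08, edgeR adjusted p = 0.0357), a call that 6 of 17 alternatives lost. With library size alone 4 genes of this list were higher, and 1 without shControl replicate 3 or shACSL4 replicate 1 or 2. Of 9 side-branch genes and relatives of the pentose pathway 6 had enough reads. Among these 6, 2 fell and 0 rose (23.1% and 24% of all genes tested). Lower were PRPS2, which makes phosphoribosyl pyrophosphate from ribose 5-phosphate (-0.50, SE 0.08), and DERA, which splits deoxyribose phosphate (-0.32, SE 0.09). The call of DERA was lost in 4 of 17 alternatives, among them that without shACSL4 replicate 2, which left 1 gene of the list lower. The transketolase relatives TKTL1 and TKTL2 had means of 1.17 and 0 counts.

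Among 11 genes of citrate and malate supply 8 fell and 2 rose (23.1% and 24% of all genes tested), with a median of -0.33. ACLY, which makes cytosolic acetyl-CoA from citrate, changed by -0.44 (SE 0.09) and the aspartate aminotransferase GOT2 by -0.46 (SE 0.09), while PC, pyruvate carboxylase, rose by 0.85 (SE 0.12). With library size alone 4 of these genes were lower, and without shACSL4 replicate 1 there were 5. The 2 rises became 1 without any of shControl replicates 1 and 3 or shACSL4 replicates 1, 2 and 3. Of 13 genes at the hexose and triose nodes shared with glycolysis 10 fell and 1 rose (23.1% and 24% of all genes tested), with a median of -0.41. ALDOC changed by -1.70 (SE 0.14) and HKDC1, a hexokinase-like gene, rose by 1.22 (SE 0.10). ALDOA changed by -1.70 as well, but the coding gene AC093512.2 overlaps it on the same strand, so its count is uncertain.

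Of 25 genes whose products use NADPH 12 fell and 5 rose (23.1% and 24% of all genes tested), with a median of -0.19. TXNRD1, thioredoxin reductase, went from 1039 ± 19.9 to 302 ± 18.6 CPM (SD, n = 3). NQO1, a quinone reductase, went from 955 ± 77.6 to 491 ± 15.5 CPM, and AKR1B1, aldose reductase, from 28.4 ± 5.69 to 5.24 ± 1.21 CPM (SD, n = 3). The 5 rises became 2 without shControl replicate 3. A list of 13 regulators known for these genes held transcription factors and KEAP1. Of these 5 fell and 4 rose (23.1% and 24% of all genes tested), with a median of -0.19, and KEAP1 was among the rises. MAFG, a small MAF partner of NRF2, changed by -1.15 (SE 0.10), HIF1A by -0.71 (SE 0.09) and SREBF1 by 0.89 (SE 0.08). The 4 rises became 2 with median-of-ratios scaling and 1 without shControl replicate 1 or 3 or shACSL4 replicate 1 or 2.

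NFE2L2, which encodes NRF2, and KEAP1, which marks NRF2 for degradation, were both slightly higher in shACSL4. NFE2L2 was at 113 ± 10.2 and 132 ± 2.87 CPM and KEAP1 at 72.9 ± 6.77 and 85.3 ± 0.261 CPM (SD, n = 3). Both had a log2 fold change of 0.23 (SE 0.09 each; edgeR adjusted p = 0.0423 for NFE2L2 and 0.044 for KEAP1). The call of NFE2L2 was lost in 9 and that of KEAP1 in 11 of 17 alternatives, with fold changes down to 0.07 and 0.03 relative to neighbouring genes.

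**Figure D5:**
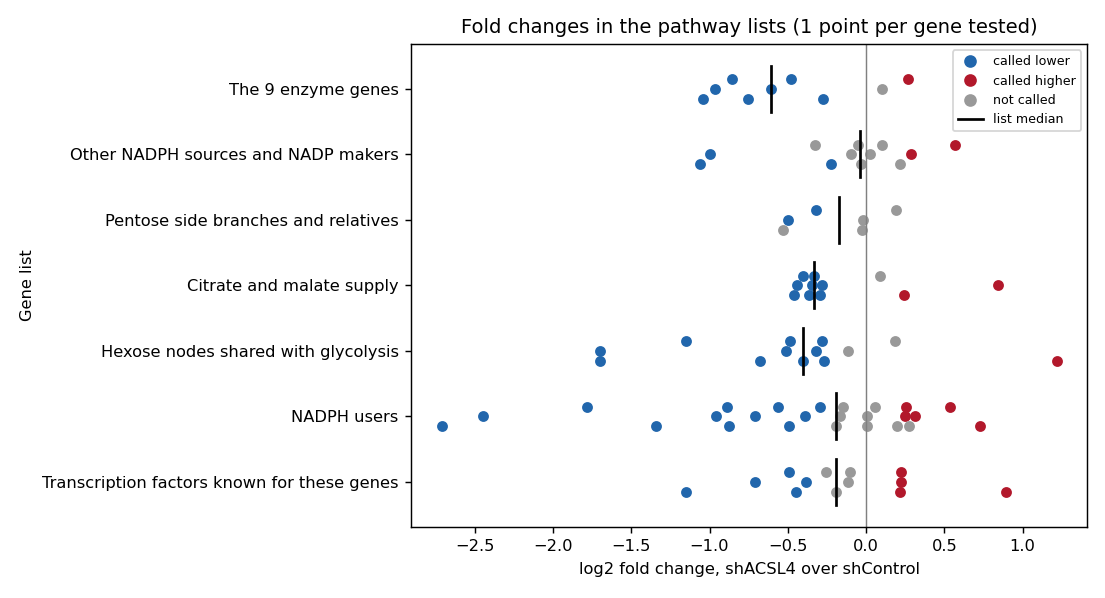
Log2 fold change of shACSL4 over shControl (horizontal axis) for each gene tested in the 9-gene set and in the 6 pathway lists, with blue for called lower, red for called higher, grey for not called and a black bar for the median. The median is -0.61 for the 9 genes and between -0.41 and -0.04 for the lists.

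Likeness of profiles was taken as the root mean square difference of log2 CPM, centred over the 6 libraries, among 10827 well-counted coding genes outside the lists. Closest to ME1 were GLUL, glutamine synthetase (0.032), NAMPT, the rate-limiting enzyme of NAD salvage (0.0399), and LIMK1, a kinase of the actin cytoskeleton (0.0411), whose log2 fold changes were -1.10, -1.08 and -1.02. Closest to RPE were DVL2 (0.0163), GAK (0.0206) and CEACAM5 (0.0301), with 0.26, 0.29 and 0.26. With 6 libraries in a pair of groups this measure mostly ranks genes by the size of their group difference.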

How the data were processed

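RNA-seq libraries of T84 cells (3 shControl, 3 shACSL4) were analysed from 1 deposited table. Per the labels' protocols, Trizol was used for extraction, and NEB libraries were made after ribosomal depletion. The submitters' processing notes name CASAVA, HISAT2 and GRCh38 (hg38) and no versions. The read counter, and whether it used strand, is not given in the sources used here. The table holds raw read counts per gene, deposited by the authors. It also holds FPKM per library, which the authors scaled by median-of-ratios size factors, as recomputation showed. Its group means are the deposited signal of scaled counts, and log2 fold changes and p-values of the authors are given beside them. Control columns are prefixed NC and were taken as shControl, the only other group, by number. All 58735 identifiers are in GENCODE release 29.

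Counts were filtered with filterByExpr, scaled by TMM and tested by the quasi-likelihood method of edgeR (version 4.0.16, under R 4.3.3, with limma 3.58.1 and DESeq2 1.42.0 for alternatives), with Benjamini-Hochberg adjustment over all 15694 genes tested and calls at 0.05. CPM uses TMM-scaled library sizes, levels are mean ± SD and SE is that of the log2 fold change. At this depth 3 counts equal 0.171 to 0.202 CPM, a limit of counting error only, since reads lacking molecular identifiers may be copies of 1 molecule. The 9 genes and the lists were chosen with earlier results of these data known. Named genes were the 9, ACSL4, in each list at most 3 called genes by lowest adjusted p, NFE2L2, KEAP1, IDH2, ME3, NADK and the 3 likeliest profiles for the largest fall and rise. TKTL1, TKTL2, RPEL1, KANSL1L, AC093512.2 and the epithelial markers were named after their values were seen. Steps were tested on simulated data in which nearly all genes were unchanged, unlike here. Of 50 genes changed at each fold, 18% were recovered at 1.25, 52% at 1.5, 74% at 2 and 96% at 4. Small changes may thus be missed. The alternatives were other scalings, filters and tools, the replicate block, leaving out each library, coding genes alone, a fold of 1.2, and the running median of 51 neighbouring genes subtracted as a fixed value.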

Additional observations from a re-analysis of the deposited data

How the results depend on the processing

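Over 17 alternatives ME1, TALDO1, PGD, RPIA, TKT and ME2 were called lower in all 17, IDH1 in 14 and RPE higher in 13, and PGLS was called in none. With 1 library left out, 6 to 7 of the 9 genes were lower, 0 to 1 higher, and 6122 to 7251 genes were called in the table. A test against a fold of 1.2 gave 4650 calls in the table, 6 of the 9 genes lower and 0 higher, because it asks for a larger change, and relative to neighbouring genes 0 of the 9 were higher. In the latter setting GAK was at -0.17 and CEACAM5 at -0.094, against rises otherwise. Library size alone moved the median of all genes from 0.01 to 0.13 and the share of calls that were higher from 50.9% to 65.6%. It gave 4 higher among other NADPH sources, 1 lower among pentose side branches and 4 lower in citrate and malate supply. Median-of-ratios scaling gave 2 higher among transcription factors and KEAP1. With 1 library left out, counts ran from 1 to 3 (other NADPH sources, higher) and 1 to 3 (pentose side branches, lower). They ran from 5 to 8 and 1 to 2 for citrate and malate supply (lower and higher). For NADPH users they ran from 2 to 6 (higher), and for transcription factors and KEAP1 from 1 to 3 (higher). The cause was not tested.

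Replicate numbers did not pair the libraries: deviations of same-numbered libraries correlated at 0.06, -0.00128 and 0.00753. With the replicate number as a block, 7414 genes were called, 7 of the 9 lower and 1 higher, so the block changed no call among the 9. The 250 bases before the start alone gave the same number of genes with each motif.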
